A study of Mus musculus with 4 samples.

Results

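Skin of naive Egr1 knockout (KO) mice was compared with skin of naive wild-type (WT) mice, gene by gene, from 1 library of each. A gene entered when its symbol stood on a single line of the deposited tables and its log2 value reached 8 in at least one of the 2 naive libraries. This left 7301 of 23238 gene symbols, and 27 of them (0.37%), at 0 reads in the KO-labelled naive library, were set apart, so that 7274 were compared. Gene expression had been profiled in adult C57BL/6 skin in 4 libraries, to ask how Egr1 bears on the artemin gene Artn and on the nerve supply of the epidermis in an atopic dermatitis model. According to the labels, the WT (Egr1+/+) and KO (Egr1-/-) naive mice share the treatment label SDS (sodium dodecyl sulfate, which breaks down the barrier of the skin). Their 2 counterparts received SDS and then a cream with house dust mite (HDM) extract, 100 mg at a time. The schedule of 2 times per week for 3 weeks is given for the naive and the HDM mice alike. The KO mice carried the deletion on a C57BL/6 background and came from crosses genotyped by PCR. The labels do not describe which part of Egr1 is disrupted, nor how many mice entered a library. The labels name no cell type-specific allele.

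EGR1 is a zinc finger transcription factor that growth factors, injury and stress switch on within minutes. It binds GC-rich promoter sites, and the corepressors NAB1 and NAB2 limit its activity. In skin it is induced in keratinocytes and fibroblasts, and it has been linked to matrix genes such as the collagens. Its relative EGR2 drives the myelin programme of Schwann cells.

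The letters of the EGR site were searched as a description in the promoters of the genes (GCGTGGGCG or GCGGGGGCG, either strand, in 300 bases from 250 before to 50 after a RefSeq start, build GRCm38.p6). Of all 32851 windows in the RefSeq table, 3.47% held them. Windows were found for 5820 of the 7274 compared genes, and 8.40% of these genes had the letters in at least one window. Shares by direction were not compared, since not all genes had a window. Windows were found for 77.1% of the higher, 80.2% of the lower and 80.0% of all compared genes. Past 2-fold, 134 list members had a window, 79 of them higher and 55 lower. Of these, 5 had the letters within the 250 bases before the start: Wnt2, Tnc, Klf2 and Mmp14 were higher and Adamts14 was lower. No direction is read from so few genes. The 8.40% above covers 300 bases in any window of a gene, and no such share is given for the 250 bases alone. The 5 of 134 are thus not read as many or few. The 3 matrix genes among them that recur below are shown here, with the EGR letters in capitals. Tnc encodes the matrix protein tenascin C (chr4:64047016-64047265, minus strand), Mmp14 a membrane-bound collagenase (chr14:54431348-54431597, plus strand) and Adamts14 a procollagen protease (chr10:61273420-61273669, minus strand). They were chosen after their values were seen, and a match in the letters does not show binding.
Tnc: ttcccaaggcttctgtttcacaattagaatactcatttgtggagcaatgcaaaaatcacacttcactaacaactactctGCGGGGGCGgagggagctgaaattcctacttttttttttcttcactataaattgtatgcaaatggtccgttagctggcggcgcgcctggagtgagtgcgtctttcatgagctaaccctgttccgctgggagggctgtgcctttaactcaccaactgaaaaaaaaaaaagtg
Mmp14: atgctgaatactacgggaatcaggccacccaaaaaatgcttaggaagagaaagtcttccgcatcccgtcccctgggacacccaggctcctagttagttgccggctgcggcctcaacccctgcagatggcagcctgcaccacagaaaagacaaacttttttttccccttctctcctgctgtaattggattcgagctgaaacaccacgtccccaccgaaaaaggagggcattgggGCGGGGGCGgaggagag
Adamts14: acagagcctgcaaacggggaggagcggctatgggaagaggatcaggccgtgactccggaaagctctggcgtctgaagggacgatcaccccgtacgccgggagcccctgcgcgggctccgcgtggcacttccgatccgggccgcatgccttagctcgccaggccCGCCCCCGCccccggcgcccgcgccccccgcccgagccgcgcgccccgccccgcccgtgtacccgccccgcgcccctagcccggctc
The letters start 171 bases before the start of Tnc, 17 before that of Mmp14 and 87 before that of Adamts14. In Adamts14 they lie on the opposite strand.

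The 4 libraries held 9445194 to 10129484 reads, recovered from the log2 values. The KO-labelled naive library had reads on 12880 genes, against 15547 to 16536 in the others, and 336 genes were at 0 there alone that had 50 or more reads in each other library (0 to 5 such genes elsewhere). It also had the fewest genes with 1 to 10 reads, 727 against 1518 to 2629. With 1 library per group there is no replicate error and no test. Intervals below are exact 95% Clopper-Pearson intervals and cover counting error only, and a 2-fold difference compares these libraries, not the genotypes. In whole skin, fewer cells of a type and less RNA per cell cannot be told apart.

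Egr1 itself did not stand lower in the libraries labelled KO. Egr1 (chromosome 18, 34861207 to 34864956) had 1966 (WT) and 3158 reads (KO-labelled) in the naive pair and 1174 and 3494 in the HDM pair, so that the naive KO-labelled library was 1.42-fold above WT (1.35 to 1.51). Reads from the 3′ end can come from outside a disrupted part, so this value is no check of a label, and the libraries are called KO-labelled here. Artn had 0 reads in both naive libraries, which allows up to 3 reads in each, and 24 and 5 in the WT and KO-labelled HDM libraries. No difference in Artn was detectable in naive skin at this depth.

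Of the 7274 compared genes, 890 (12.2%) were higher by 2-fold or more in the KO-labelled naive library, 869 (11.9%) were lower and 5515 lay within 2-fold. The median difference was 0.01 on the log2 scale, with quartiles at -0.52 and 0.56. The 2-fold groups include 245 higher and 276 lower genes whose other value was 7 or less and which had to differ in order to enter. Among the 5278 genes that reached 8 in both libraries, 310 (5.87%) were higher and 266 (5.04%) lower. The counts of each gene list below are to be read beside these shares of all genes, and HDM counts beside 2.09% and 3.41%. A scale of reads over the library total moves all differences by 0.12 towards higher, with 1040 genes then higher and 685 lower. Just inside the level of 8 lay Gimap4, Inhbb and Saysd1, and their differences were 1.42, -0.63 and 0.23. Just outside lay Ccnt2, Kin and Nfkb1, with differences of 0.34, 0.27 and 1.43.

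**Figure D1:**
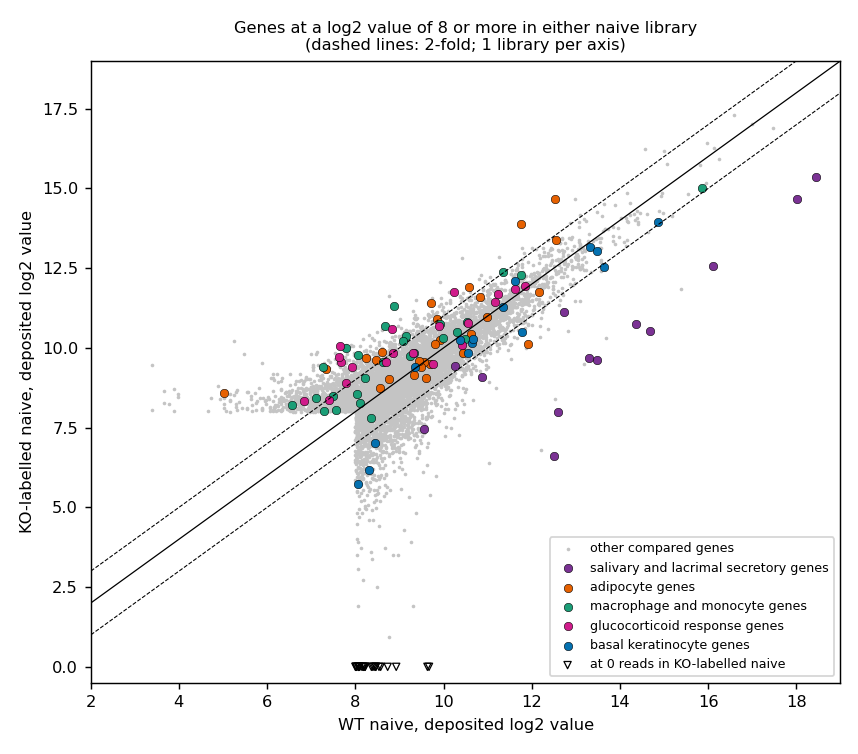
Deposited log2 values of each gene in WT naive (x) and KO-labelled naive skin (y), 1 library per axis. Dashed lines mark 2-fold, coloured points are members of 5 gene lists, and triangles are the 27 genes with no KO-labelled reads. The secretory genes lie far below the diagonal, and most adipocyte, macrophage and glucocorticoid response genes lie above it.

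The share of genes past 2-fold depended on the level. It was 23.5% of 2480 genes with a mean log2 value of 8 to 9, 14.0% at 9 to 10, 9.95% at 10 to 11, 8.89% at 11 to 12 and 10.6% of 293 genes at 12 or more. In the HDM pair of libraries, KO-labelled against WT, the same shares were 4.75%, 4.44%, 3.81%, 4.94% and 9.62%. The naive pair thus had the larger share in each of the 5 bins, and the gap was smallest at 12 or more.

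**Figure D2:**
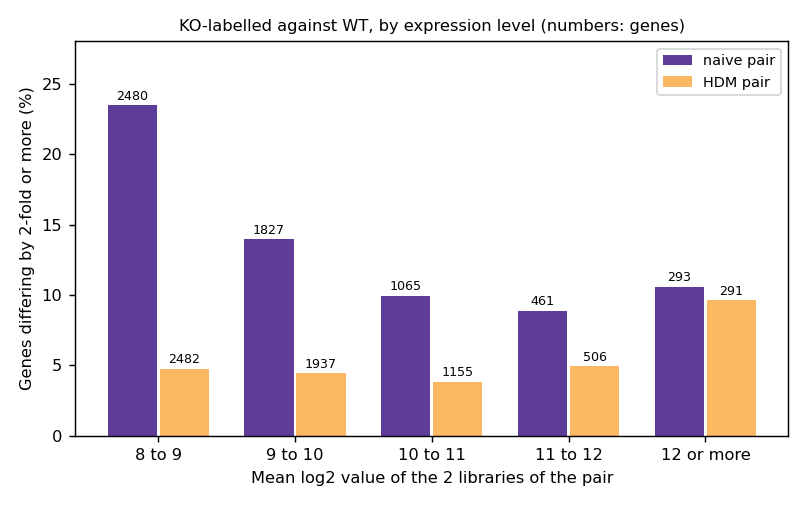
Share of genes that differed by 2-fold or more between the KO-labelled and the WT library (y, percent), by the mean log2 value of the pair (x), for the naive and the HDM pair. Numbers above the bars are genes. The naive bars fall from 23.5% to 8.89% between the lowest and the fourth bin, and the HDM bars stay between 3.81% and 4.94% there.

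Of the EGR genes and their NAB corepressors 5 were compared, with 0 higher and 2 lower (Egr2 and Nab2). With the Sp and Klf factors, which bind similar GC-rich sites, the list had 9 compared genes, 0 higher and 3 lower, beside the 12.2% and 11.9% of all genes. Egr2 had 409 (WT) and 144 reads (KO-labelled) in the naive pair and 389 and 808 in the HDM pair. It was 3.20-fold lower (2.64 to 3.9) in the naive KO-labelled library, the lowest of the 4. Losses of genes in that library and the genotype cannot be told apart. Nab2, the EGR corepressor, had 268, 128, 560 and 488 reads in the same order and was 2.36-fold lower (1.91 to 2.94). Klf5, a factor of proliferating epithelium, had 4505, 2108, 5641 and 3901 reads, 2.41-fold lower (2.29 to 2.54). Both KO-labelled libraries were below their WT counterparts for Nab2 and Klf5, though by less than 2-fold under HDM. Of these 3 genes only Klf5 reached a log2 value of 8 in both naive libraries. Egr3 and Nab1 lay within 2-fold, at 0.48 and -0.33, and Egr4 and Wt1 did not reach the level of 8.

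Other immediate early genes did not move one way. Of 21 compared, 2 were higher and 1 lower, with a median of 0.00 beside 0.01 for all genes. Fos, a subunit of the AP-1 factor, had 537 (WT) and 1628 reads (KO-labelled) in the naive pair and 89 and 714 in the HDM pair, and was 2.69-fold higher (2.44 to 2.97) in the naive pair. It stood higher in the KO-labelled library of both pairs. Klf2, a factor of endothelium and lymphocytes, was 2.53-fold higher (2.20 to 2.92) and Klf10, which TGF-beta induces, 2.94-fold lower (2.40 to 3.61). Jun and Junb lay within 2-fold, at -0.85 and -0.77.

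Genes reported elsewhere as EGR1 targets passed 2-fold in both directions. Of 17 compared, 3 were higher and 3 lower, and 12 differences were positive and 5 negative, with a median of 0.52. Igf2, a growth factor gene, had 232 and 1136 reads in WT and KO-labelled naive skin and 102 and 42 in the HDM libraries, 4.34-fold higher in the naive pair (3.77 to 5.02). Vegfa, the angiogenic growth factor gene, had 272 and 84 reads in naive and 839 and 682 in HDM skin, 3.65-fold lower in the naive pair (2.85 to 4.72). The other members past 2-fold were Col1a2 and Mmp14, higher, and Egr2 and Nab2, lower. Among the 13 members at 8 or more in both naive libraries, 2 were higher and 0 lower.

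Matrix genes stood higher in KO-labelled naive skin. Of 32 elastic fibre, proteoglycan and other matrix genes compared, 6 were higher and 0 lower, beside 12.2% and 11.9% of all genes, and 29 had a positive difference, with a median of 0.63. At 8 in both libraries it was 5 and 0 of 30, with a median of 0.62, beside 5.87% and 5.04% of all such genes. Tnc, whose promoter is shown above, had 409 (WT) and 3362 reads (KO-labelled) in the naive pair and 905 and 1388 in the HDM pair. Its naive ratio was 7.29 (6.57 to 8.10), and the KO-labelled naive library was the highest of the 4. Postn, the gene of periostin, a matrix protein of injured and allergic skin, had 915, 4539, 1300 and 1220 reads and a ratio of 4.40 (4.10 to 4.73). Tnxb, Mfap4, Thbs2 and Fbln2 were the other members past 2-fold, with differences of 1.75, 1.61, 1.32 and 1.08. In the HDM pair 2 of these 32 were higher and 7 lower, beside 2.09% and 3.41% of all genes, and the median was -0.26.

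Of 17 collagen genes compared, 4 were higher and 1 lower, beside 12.2% and 11.9% of all genes. The median was 0.45, and at 8 in both 3 were higher and 0 lower of 15. Col3a1, a fibrillar collagen of the dermis, had 23133 (WT) and 81776 reads (KO-labelled) in the naive pair and 12347 and 7315 in the HDM pair, 3.13-fold higher in the naive pair (3.09 to 3.18). Col1a2 was 2.28-fold higher (2.25 to 2.31) and its partner Col1a1 1.67-fold (1.66 to 1.69), short of 2-fold. Col18a1, a basement membrane collagen, was the lower member, with 249 and 110 reads in the naive libraries (2.55-fold, 2.03 to 3.23). The 4 fibrillar and associated members past 2-fold (Col3a1, Col14a1, Col16a1, Col1a2) were not higher in the KO-labelled library of the HDM pair, where their differences ran from -1.13 to -0.40.

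The enzymes that cut matrix followed the same side in naive skin. Of 12 compared metalloprotease, ADAMTS and TIMP genes, 5 were higher and 1 lower, beside 12.2% and 11.9% of all genes. The median was 0.87, and at 8 in both 4 were higher and 0 lower of 9. Mmp3, the stromelysin gene, had 123 and 756 reads in the naive and 925 and 463 in the HDM libraries, 5.45-fold higher (4.50 to 6.65) in naive KO-labelled skin. Mmp2, a gelatinase gene, was 2.48-fold higher (2.29 to 2.69) and Mmp14 2.20-fold (2.11 to 2.29), from 3450 and 8553 reads. Adamts14 was the lower one, from 256 to 109 reads.

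Fibroblast markers lay on the same side, with 8 of 23 higher, 0 lower and a median of 0.83 (6 of 20 among genes at 8 in both). The shares of all genes were 12.2% and 11.9%. Dpp4, a marker of dermal fibroblast progenitors, had 44 (WT) and 422 reads (KO-labelled) in the naive pair and 105 and 90 in the HDM pair, a ratio of 8.50 (6.22 to 11.9). Clec3b, the tetranectin gene, had 806, 2430, 533 and 348 reads and a ratio of 2.67 (2.47 to 2.90). Pdgfra, a growth factor receptor of fibroblasts, was 2.16-fold higher (1.92 to 2.45). The list took 0.871% of the reads in WT naive and 1.41% in KO-labelled naive skin, against 0.530% and 0.399% in the HDM libraries. Vim, Dcn and Col1a1 were among the members of these lists that stayed within 2-fold, at 0.70, 0.70 and 0.74.

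Fat cell genes were mostly on the higher side. Of 27 adipocyte genes compared, 10 were higher and 1 lower, beside 12.2% and 11.9% of all genes. The median was 0.33, and at 8 in both 8 were higher and 1 lower of 25. Lep, the gene of the satiety hormone leptin, had 30 (WT) and 413 reads (KO-labelled) in the naive pair and 28 and 114 in the HDM pair. The naive ratio was 12.2 (8.42 to 18.3). Fabp4, a fatty acid carrier of adipocytes, had 5617, 27753, 2762 and 6868 reads and a naive ratio of 4.38 (4.26 to 4.51). Cfd, the gene of the adipokine adipsin, had 3293, 16229, 1756 and 3887 reads and a ratio of 4.37 (4.21 to 4.54). In all 3 genes each KO-labelled library was above the WT library of its pair, and the KO-labelled naive library was the highest of all. Adipoq, the adiponectin gene, was 2.50-fold higher (2.36 to 2.66), and Pck1, Car3, Mest, Thrsp, Agpat2 and Retn were the other members past 2-fold. The lower member was Cidea, a lipid droplet gene that sebaceous cells also express, with 3677 and 1183 reads.

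The adipocyte list took 0.418% of reads in WT naive and 0.895% in KO-labelled naive skin, and 0.222% and 0.392% in WT and KO-labelled HDM skin. In the naive pair the list went from 40194 to 89014 reads, Fabp4 from 5617 to 27753 and Cfd from 3293 to 16229. Fabp4 and Cfd thus carry much of the gap in naive share, and 9 of the 27 naive differences were negative. Under HDM 10 of 27 members were higher and 0 lower in the KO-labelled library, beside 2.09% and 3.41% of all genes, with a median of 0.73. The share of reads was thus higher in the KO-labelled library of both pairs. Of 5 genes of heat-producing fat, 0 were higher and 2 lower (Elovl3 and Cidea) in the naive pair, with 3 positive and a median of 0.13. Under HDM 2 of these were higher and 0 lower, with 4 positive and a median of 0.59.

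**Figure D3:**
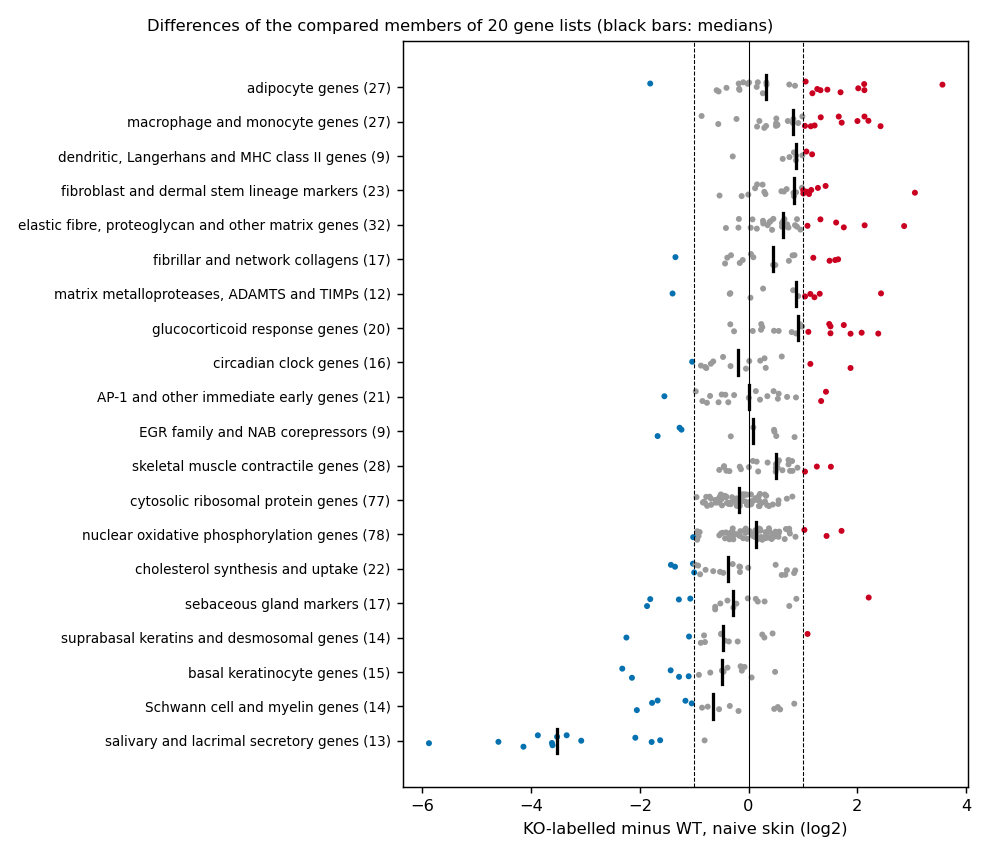
KO-labelled minus WT difference in naive skin (x, log2) of each compared member of 20 gene lists (rows, members in brackets), with medians as black bars and dashed lines at 2-fold. Red members are higher by 2-fold or more, blue ones lower. Medians run from -3.52 for secretory genes to 0.91 for glucocorticoid response genes, and the ribosomal genes all stay within 2-fold.

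Of 20 genes that glucocorticoid hormones induce, 8 were higher and 0 lower, beside 12.2% and 11.9% of all genes. A positive difference was seen in 18, with a median of 0.91. Of the 20, 7 members, 6 of the 8 higher ones among them, reached 8 only in the KO-labelled library. The 13 members at 8 in both libraries gave 2 higher and 0 lower, with a median of 0.47. Fkbp5, a chaperone of the glucocorticoid receptor, had 191 (WT) and 1131 reads (KO-labelled) in the naive pair and 206 and 310 in the HDM pair. Its naive ratio was 5.25 (4.50 to 6.15), and the other 3 libraries held 191 to 310 reads. Tsc22d3, the gene of the anti-inflammatory protein GILZ, had 1141, 3661, 768 and 1372 reads and a ratio of 2.84 (2.66 to 3.04). Per1, a clock gene that the hormone also induces, had 192, 798, 87 and 193 reads and a ratio of 3.68 (3.14 to 4.34). Errfi1, an inhibitor of the EGF receptor, had 186, 891, 206 and 403 reads and a ratio of 4.25 (3.62 to 5.0).

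Sult1a1, Zbtb16, Cebpd and Hsd11b1, which encodes the enzyme that regenerates active glucocorticoid, made up the rest of the 8, at 1.75, 1.51, 1.48 and 1.10. The metallothionein genes Mt1 and Mt2 and the kinase gene Sgk1 lay within 2-fold, at 0.08, 0.47 and 0.87. In the HDM pair 1 of 20 was higher and 0 lower, and 17 differences were positive, with a median of 0.42.

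Of 16 circadian clock genes compared, 2 were higher (Per1 and Per2, at 1.88 and 1.14) and Per3 was lower, at -1.04, with a median of -0.19 (0 and 1 of 13 at 8 in both). The output genes Dbp and Tef lay within 2-fold, at 0.21 and -0.65.

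**Figure D4:**
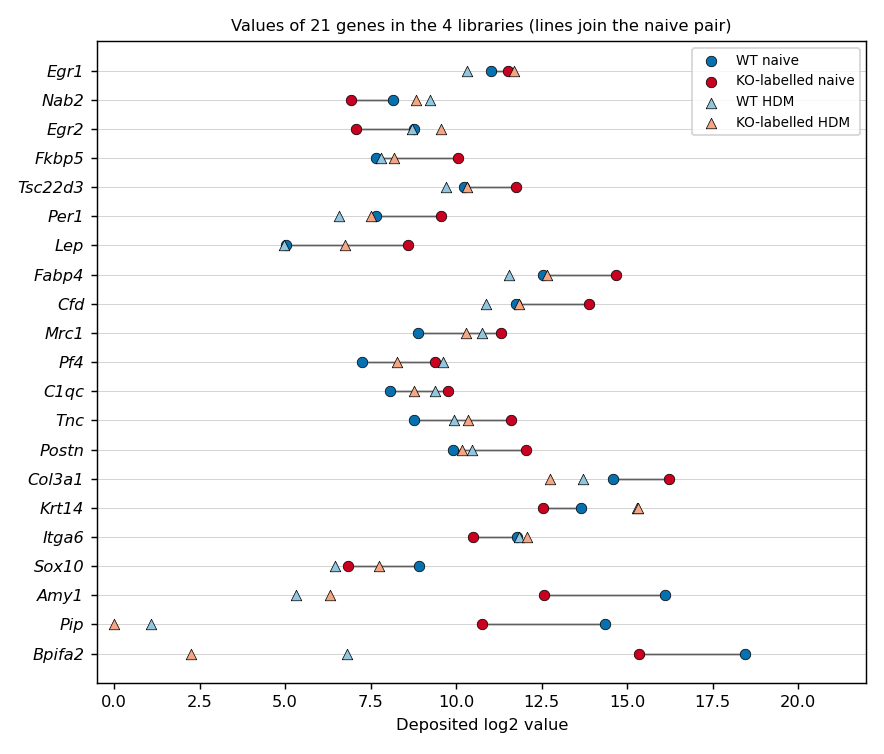
Deposited log2 values (x) of 21 genes (rows) in WT naive, KO-labelled naive, WT HDM and KO-labelled HDM skin, 1 library each, with a line joining the naive pair. For Fkbp5, Lep, Tnc and Postn the KO-labelled naive point is the highest of the 4, and for Egr2, Krt14 and Itga6 it is the lowest.

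Macrophage genes were on the higher side in naive skin. Of 27 compared, 10 were higher and 0 lower, beside 12.2% and 11.9% of all genes, with a median of 0.82. At 8 in both libraries it was 6 of 19, beside 5.87% of all such genes, with a median of 0.53. Mrc1, the mannose receptor of resident dermal macrophages, had 447 (WT) and 2719 reads (KO-labelled) in the naive pair and 1598 and 1339 in the HDM pair, a naive ratio of 5.39 (4.88 to 5.97). Pf4, a chemokine of platelets and macrophages, had 144, 716, 722 and 327 reads and a ratio of 4.41 (3.68 to 5.31). C1qc, a subunit of complement C1q, had 251, 931, 622 and 467 reads and a ratio of 3.29 (2.86 to 3.80). WT naive was the lowest library for all 3.

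Csf1r, the receptor for the macrophage growth factor, was 2.32-fold higher (2.10 to 2.57), and Lyz1, Retnla, Ly6c2, Folr2, Fcgr3 and F13a1 were also past 2-fold. Apoe, which many skin cells express, went the other way within 2-fold, from 56529 to 35031 reads, and it outweighs the rest in the list's share of reads, which was 0.773% in WT and 0.709% in KO-labelled naive skin. In the HDM pair 1 of 27 was higher and 6 lower, with a median of -0.73. MHC class II and dendritic cell genes gave 2 higher (Clec4a3 and H2-DMb1) and 0 lower of 9, with a median of 0.87, and -0.90 in the HDM pair. Both of these reached 8 only in the KO-labelled library, and of the 5 members at 8 in both 0 were past 2-fold, with a median of 0.75. The invariant chain gene Cd74 had 8777 and 18120 reads in the naive libraries. Haemoglobin and other red cell genes gave 3 higher and 0 lower of 7, and no direction is read from them. The most abundant, Hba-a1, lay at -0.24, with 17556 and 16825 naive reads. Hbb-b2 and Hbb-bt, at 1.02 and 1.02, are near-identical copies whose reads may be 1 signal counted more than once.

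Complement and acute phase genes gave 6 higher and 1 lower of 19, beside 12.2% and 11.9% of all genes. Cfd and C1qc, counted above in the adipocyte and macrophage lists, are among the higher ones. Cfp, the properdin gene, was 2.41-fold higher (2.04 to 2.85). Saa3, an acute phase gene, had 867 (WT) and 67 reads (KO-labelled) in the naive pair and 10853 and 9613 in the HDM pair, 14.6-fold lower in the naive pair (11.4 to 19). Of 9 type 2 and itch genes, 4 were higher (Postn, Retnla, Ccl11 and Il33) and Stat6, the factor of interleukin 4 signalling, was lower at -1.43, and of the 5 at 8 in both 2 were higher and 0 lower. Ccl11, the eotaxin gene, had 66 and 278 reads, and Il33, an alarmin gene, 132 and 304. T cell genes (5 compared) and B cell genes (2) had no member past 2-fold, and 1 of 8 mast cell genes did (Ms4a2, lower).

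Basal keratinocyte genes stood lower in KO-labelled naive skin. Of 15 compared, 0 were higher and 5 lower, beside 12.2% and 11.9% of all genes. In all, 13 differences were negative, and the median was -0.49 (0 and 2 of 12 at 8 in both). Krt14, a keratin of basal cells, had 12141 (WT) and 6384 reads (KO-labelled) in the naive pair and 36838 and 43928 in the HDM pair, 2.15-fold lower in the naive pair (2.08 to 2.21). Itga6, an integrin subunit of hemidesmosomes, had 3328, 1546, 3372 and 4594 reads and was 2.43-fold lower (2.29 to 2.58). Itga3, a laminin receptor subunit, had 252, 56, 305 and 552 reads and was 5.08-fold lower (3.79 to 6.91). The naive KO-labelled library was the lowest of the 4 for all 3 genes. It is also the library in which 336 genes were at 0 alone, so its losses and the genotype cannot be told apart.

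Lama3 and Col7a1, which encode a laminin chain and the anchoring fibril collagen beneath basal cells, were 4.47-fold (3.46 to 5.82) and 2.71-fold (2.21 to 3.34) lower. The limit on losses in the KO-labelled naive library holds here too. Krt5, the partner of Krt14, was 1.88-fold lower (1.85 to 1.92), and Col17a1 went the other way at 0.49. The list took 0.803% of the reads in WT and 0.573% in KO-labelled naive skin. In the HDM pair 13 of the 15 differences were positive, with a median of 0.31.

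Genes of the upper epidermis had negative medians as well. Of 14 suprabasal keratin and desmosome genes, 1 was higher (Jup) and 2 lower (Krt78 and Krt1), with a median of -0.47. Krt1, a keratin of differentiating cells, had 942 and 497 reads in the naive and 22881 and 6859 in the HDM libraries, and Krt78 had 483 and 114, and 914 and 327. Both were lower in the KO-labelled library of each pair. Of 25 cornified envelope genes, 1 was higher (Lce1m) and 4 lower (Sprr1a, Lce1f, Lce1c, Lce1a1), with a median of -0.18, against 0 higher and 14 lower in the HDM pair, with a median of -1.48. Some late cornified envelope genes are close copies, so reads may be split between them.

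Among 18 barrier lipid enzymes, 1 was higher and 3 lower. Aloxe3, a lipoxygenase of the barrier, had 1723 and 663 reads, 2.93-fold lower (2.68 to 3.21), Slc27a4, a fatty acid transporter, was 2.46-fold lower (2.33 to 2.61) and Acer1, a ceramidase, 2.09-fold (1.96 to 2.24). Wound keratinocyte genes had 8 compared members, 2 higher (Tnc and Defb14) and 4 lower. Krt6a, a keratin of activated epidermis, had 1340 reads in WT naive and 324 in KO-labelled naive skin, and 152024 and 209399 in the HDM libraries, 4.66-fold lower in the naive pair (4.13 to 5.28). Serpinb3a had 600 and 3 reads in the naive and 668 and 240 in the HDM libraries, but it has near-identical copies, and its neighbour Serpinb3b lay at -0.60.

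Schwann cell genes gave 0 higher and 5 lower of 14, beside 12.2% and 11.9% of all genes. The median was -0.65 (0 and 3 of 11 at 8 in both, median -0.34). Sox10, the lineage factor of Schwann cells and melanocytes, had 452 (WT) and 122 reads (KO-labelled) in the naive pair and 80 and 230 in the HDM pair, 4.18-fold lower in the naive pair (3.41 to 5.15). Egr2, L1cam, an adhesion molecule gene, and Ngfr, a neurotrophin receptor gene, were lower as well, at -1.67, -1.16 and -1.04. Of the 14, 10 differences were negative, among them Cnp and Mal, both of myelin, at -0.54 and -0.75 with 650 and 503, and 499 and 334 naive reads. The 4 positive ones included the myelin genes Mbp and Pmp22, at 0.47 and 0.54. The WT naive library was the highest of the 4 for Sox10. Genes of salivary and lacrimal secretion took 7.71% of the reads in that library and 0.893% in KO-labelled naive skin. How far gland tissue bears on the Sox10 difference was not tested.

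Of 15 GDNF family, neurotrophin and guidance genes, 4 were higher and 4 lower, with a median of 0.09. Among the 10 at 8 in both libraries 1 was higher and 3 lower. Sema3a, an axon repellent, had 24 (WT) and 368 reads (KO-labelled) in the naive pair and 79 and 26 in the HDM pair, a naive ratio of 13.6 (8.99 to 21.5). Ntn1, the netrin 1 gene, had 158 and 555 naive reads (3.11-fold, 2.61 to 3.74), and Slit3 and the GDNF receptor gene Gfra1 were also higher, at 1.12 and 1.02. Lower were Sema3d with 1035 and 290 reads (4.03-fold, 3.53 to 4.60), Gfra2, the neurturin receptor gene, with 384 and 132 reads (3.28-fold, 2.69 to 4.03), Sort1 at -1.64 and Ngfr at -1.04. Of 22 neuron transcripts 3 reached the level: Uchl1 and Stmn2 were higher, at 2.00 and 1.45, but reached it in the KO-labelled library only, and Sncg, the 1 member at 8 in both, lay at -0.13. Sensory channel and peptide genes such as Trpv1, Trpa1 and Tac1 did not reach it.

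Genes of salivary and lacrimal secretion had the largest median difference of the 52 lists with a compared member. They took 7.71% of the reads in WT naive and 0.893% in KO-labelled naive skin, against 0.0179% and 0.0140% in the HDM libraries. Of 13 compared, 12 were lower and 0 higher, with a median of -3.52 and differences from -5.88 to -0.81, and 3 more were at 0 in the KO-labelled library. Bpifa2, a parotid secretory protein gene, had 336376 (WT) and 44929 reads (KO-labelled) in the naive pair and 104 and 4 in the HDM pair. Amy1, the salivary amylase gene, had 66714, 6549, 36 and 84 reads. How far gland tissue in the WT naive library bears on the other differences was not tested. With these genes and the ribosomal RNA gene Rn45s left out of that total, all differences moved by 0.01, and 875 genes were higher and 828 lower.

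Muscle and cartilage genes differed less. Of 28 skeletal muscle genes, 3 were higher (Myl2, Actn3 and Tnnc2) and 0 lower (1 and 0 of 26 at 8 in both), with a median of 0.50 and shares of 0.838% and 1.20% of reads in WT and KO-labelled naive skin. Cartilage genes gave 1 higher and 2 lower of 14, with a median of -0.07 and shares of 0.378% and 0.321%. In the HDM pair that median was -3.91, with shares of 0.217% and 0.061%.

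Of 17 sebaceous gland genes, 1 was higher and 4 lower, with a median of -0.28, and 12 were higher in the HDM pair, with a median of 1.40. Elovl3, which makes the long fatty acids of sebum, had 3549 (WT) and 1097 reads (KO-labelled) in the naive pair and 874 and 4525 in the HDM pair. Of 22 cholesterol synthesis and uptake genes, 0 were higher and 4 lower, with a median of -0.38. Hsd17b7 was 2.69-fold lower (2.52 to 2.89), Pmvk 2.56-fold (2.29 to 2.86), and Mvd and Cyp51 were just past 2-fold. Msmo1 and Hmgcs1 lay just within it, at -0.98 and -0.79.

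Housekeeping groups had medians near 0. Of 77 cytosolic ribosomal protein genes, 0 were past 2-fold, with a median of -0.17. Of 78 nuclear genes of oxidative phosphorylation, 3 were higher (Sdhd, Ndufa4 and Ndufa8) and 1 lower (Ndufv1), with a median of 0.14. Of 29 heat shock and chaperone genes, 1 was higher and 2 lower, with a median of 0.00.

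Of the 12 highest differences of single genes, 7 were those of major urinary proteins, pheromone carriers of liver and some glands. Of 20 Mup genes in the files 8 were compared, 7 higher, by 4.46 to 5.0 on the log2 scale, and 1 lower (Mup5). Mup2 had 35 (WT) and 1276 reads (KO-labelled) in the naive pair and 69 and 296 in the HDM pair, a naive ratio of 32.3 (23.1 to 46.6). Mup10 had 14, 397, 28 and 106 reads. The 7 genes are near-identical copies on chromosome 4, so their reads may come from fewer genes. They are read here as 1 signal, but each symbol counts singly among the 890 higher genes. In the 250 bases before their RefSeq starts, Mup2 and Mup10 shared 94.4% of bases.

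Outside the Mup family, the highest differences were those of Rufy4, Crtc2, Gm2083, Armc7 and Slc43a2. Rufy4, a gene of autophagy in dendritic cells, had 9 (WT) and 754 reads (KO-labelled) in the naive pair and 469 and 18 in the HDM pair. Its naive ratio was 74.3 (38.9 to 163), and the HDM pair went the other way. Crtc2, a coactivator of CREB, had 12, 320, 89 and 88 reads and a ratio of 23.6 (13.3 to 46.2). WT naive was the lowest library for both of these genes, but for Rufy4 the KO-labelled HDM library, with 18 reads, was low as well.

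Of the 12 lowest, Dcpp2 and 1700066N21Rik were at most 2 reads in the HDM libraries, as were Gm4736 and Mup5. Others had similar reads in the 3 other libraries. Ripk4, a kinase of keratinocyte differentiation, had 411 (WT) and 1 reads (KO-labelled) in the naive pair and 365 and 590 in the HDM pair, a naive ratio of 464 (82.7 to 18354). Mak16, Dr1, Rbm47 and Rhov likewise had 5 to 11 reads in KO-labelled naive skin against 273 to 546 in the others. These genes share the pattern of the 27 that were at 0 there.

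Of those 27, 22 had 50 or more reads in each of the other libraries. Gtf2e2, a subunit of the general factor TFIIE, had 460 reads in WT naive skin and 396 (WT) and 709 (KO-labelled) in the HDM pair, and was at least 173-fold lower in KO-labelled naive skin if its 0 allowed up to 3 reads. That limit leaves out the counting error of the WT reads, and the exact interval starts at 140.1-fold. Ift52, a cilium transport gene, had 402, 310 and 405 reads in the same 3 libraries, and Rptor, a subunit of the growth kinase complex mTORC1, 318, 272 and 305. Lhx2, a factor of hair follicle stem cells, had 268, 370 and 829. S100a9, the calprotectin gene of neutrophils, had 325 reads in WT naive and 63038 and 32674 in the HDM libraries, and no neutrophil gene could be compared in naive skin. The limit of 3 reads takes a 0 as counting error, and with 336 such genes in this library it may be too low. With 1 library, its losses and the genotype cannot be told apart.

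The HDM pair shares no library with the naive pair and carries the same genotype labels. It differs from it in sex-linked transcripts: the Y-linked gene Ddx3y had 1925 and 2430 reads in the naive libraries and 1 in each HDM library. Sex and HDM treatment thus cannot be told apart wherever the naive and HDM libraries are set side by side. Of 7242 compared genes with reads in all 4, 151 (2.09%) stood higher by at least 2-fold and 247 (3.41%) lower in the KO-labelled HDM library, against 885 and 853 in the naive pair. There were 33 genes higher in both pairs, 3.73% of the naive and 21.9% of the HDM ones, and 27 lower in both, 3.17% and 10.9%. The 33 include the 7 higher Mup genes, near-identical copies that were counted singly. A further 54 were higher in naive and lower in HDM skin, and 30 the reverse. Across genes the 2 differences had a Pearson r of -0.05 and a Spearman rho of -0.08, given as a description since genes are not independent.

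With a log2 value of 8 or more asked of all 4 libraries, 4593 genes were left, 238 higher and 235 lower in the naive pair. Of these, 3 were higher in both pairs (Fabp4, Thrsp and Thbs2) and 6 lower in both (Aloxe3, Krt1, Lce1a1, Lce1c, Lce1d and Penk). Thrsp, a regulator of fat synthesis, had 370 and 1004 reads in naive and 266 and 697 in HDM skin. Thbs2, a matrix glycoprotein gene, had 540 and 1525, and 463 and 1074. Mmp2 was higher in naive and lower in HDM skin, and 12 genes were the reverse, among them the sebaceous genes Awat1, Elovl3 and Cidea.

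Among genes with fewer reads in some library, the differences shared by both pairs were those of the Mup genes, Lep, Ces1f, Slc2a13 and Frem1 on the higher side. Hapln1, a cartilage link protein gene, had 353 and 22 reads in naive and 65 and 4 in HDM skin. Chit1, a chitinase gene of macrophages, had 627, 132, 4444 and 950 reads, 5.36-fold lower in the naive pair (4.43 to 6.51), and Arrdc4, a glucose-regulated arrestin, 259, 87, 999 and 324. Krt78, Wfdc12 and Lce1f were lower in both pairs as well, together with the gland genes Bpifa2, Scgb2b27 and Crisp1.

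**Figure D5:**
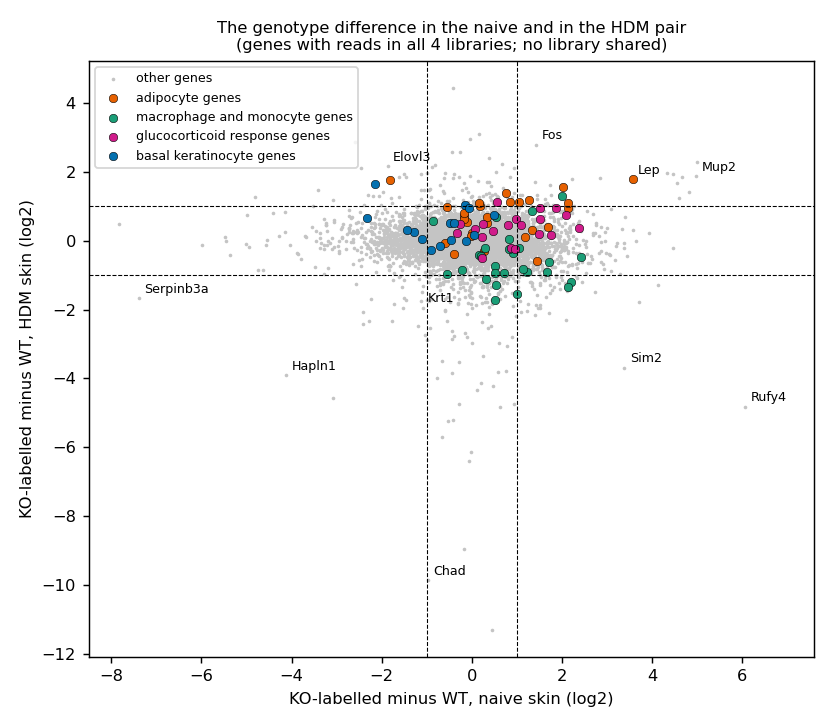
KO-labelled minus WT difference (log2) in the naive pair (x) and in the HDM pair (y) for the 7242 genes with reads in all 4 libraries, with dashed lines at 2-fold. Adipocyte genes lie mostly in the upper right, macrophage genes to the lower right, and the cloud as a whole has no slope (Pearson r -0.05).

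The neighbourhood of the targeted gene was described as well. Of 55 compared genes within 10 Mb of Egr1, 9 were higher and 2 lower in naive skin, beside 12.2% and 11.9% of all genes. The median was 0.15. In the HDM pair 0 were higher and 1 lower, beside 2.09% and 3.41%, with a median of -0.04. No direction is read from these counts.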

How the data were processed

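Skin RNA of 4 libraries, 1 per group, was sequenced from 500 ng of total RNA with a QuantSeq 3′ kit, per the labels' protocols, which reads transcripts near their 3′ end. The submitters' processing notes name Bowtie2, bedtools and mm10. How the values were normalized is not given in the sources used here. They were made by the authors, who deposited 1 log2 value per gene and library, with 3 decimals. The low values were whole multiples of 1 step per library after 2 to the power of the value minus 1, so they are log2(x + 1) of scaled reads. Dividing by the step gave reads (96.3% to 99.1% of values under 200 whole within 0.1 read). Reads without molecular identifiers are not independent molecules, so intervals cover counting error only.

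Symbols on more than 1 line (35 on 79 lines) were left out. A gene differed when its log2 difference was 1 or more in size. No test was run, since no group has a replicate. The 53 gene lists and all members were chosen with earlier results of these data known. Named genes are Egr1 and Artn, the 12 highest and 12 lowest differences, the 10 highest at 0 in KO-labelled naive skin, in each list 4 members by difference and 2 by level, 10 per direction shared by both pairs, and 3 on each side of the level of 8. Any other named gene was chosen after its value was seen. The read recovery was tested on simulated data. The work used Python 3.11.15 with Biopython 1.88, scipy 1.17.1, pandas 2.3.3 and numpy 2.4.6. Positions and promoters come from RefSeq on GRCm38.p6. A few single genes are not reported here.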

Additional observations from a re-analysis of the deposited data

Results flagged for a closer look

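The lists and genes given here lay on opposite sides in the naive and the HDM pair. Opposite signs were common: of 45 lists with at least 5 compared members, 23 had medians of opposite sign, and 54 genes were past 2-fold higher in naive and lower in HDM skin and 30 the reverse. The 3 lists are those whose medians were 0.5 or more in size in both pairs, and the 10 genes are those whose smaller difference of the 2 was the largest. With 1 library per group, the difference between the pairs was not tested. The pairs also differ in Y-linked transcripts, so sex and HDM treatment cannot be told apart in it. The macrophage list had a median of 0.82 in naive and -0.73 in HDM skin, the dendritic cell and MHC class II list 0.87 and -0.90, and the erythrocyte list 0.93 and -1.03. Each erythrocyte median is the value of 1 gene, Bpgm in the naive and Hba-a1 in the HDM pair, and the haemoglobin genes have near-identical copies.

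Rufy4 lay at 6.07 in naive and -4.82 in HDM skin, Sim2 at 3.38 and -3.69, Sema3a at 3.71 and -1.76, Trex2 at 2.08 and -2.30 and Serpinb12 at 1.71 and -2.10. Clstn3 lay at -2.60 and 2.87, Serpinb6d at -2.46 and 2.11, Lama3 at -2.15 and 1.67, Elovl3 at -1.87 and 2.17 and Cidea at -1.81 and 1.77. Elovl3 and Cidea are genes of sebaceous and heat-producing fat cells, and WT HDM was the lowest of the 4 libraries for both. Genes in this group were picked for opposite signs, so the signs support nothing by themselves.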

How the results depend on the processing

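The counts followed the level and size asked. With a log2 value of 7 in at least one library, 1354 genes were higher and 1358 lower, with 9 it was 437 and 414, with 8 in both libraries 310 and 266, and with a mean of 8 or more, chosen after seeing the data, 524 and 491. A 4-fold rule gave 143 and 195. With the whole counting interval beyond 2-fold, 578 were higher and 625 lower. Scaling by the library total, with or without gland genes and Rn45s, centring on the median and setting zeros to 3 reads kept both counts within 1.5 times of 890 and 869. Genes at 0 in KO-labelled naive skin numbered 139 at a WT level of 7 and 2 at 9, against 27 at 8. With 8 in all 4 libraries, 3 genes were higher and 6 lower in both pairs, against 33 and 27, from fewer genes compared. Among list medians, that of Schwann cell genes was -0.345 with 9 in one library, 8 in both or a mean of 8, against -0.65. With 8 in both, fibroblast markers had 0.675, macrophage genes 0.531 and glucocorticoid response genes 0.468, and fibroblast markers had 0.70 with 9 in one library. Scaled by the library total, the medians were 0.934 for fibroblast markers, 0.751 for matrix genes, -0.364 for basal keratinocyte genes and -3.40 for secretory genes. The sensory neuron median, over 3 genes, turned from 1.45 to -0.134 with a level of 7. The cause was not tested. Of all recomputed list medians 319 stayed close, 63 moved and 1 reversed, and of single differences 712 stayed close and 137 moved. No paired analysis was possible because each group holds 1 library. Depth limits genes of few reads.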

Other observations

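Beyond the lists, 4 abundant genes, chosen after their values were seen, stood at least 2-fold higher in KO-labelled than in WT naive skin. Txnip, a thioredoxin inhibitor that glucose induces, had 1289 (WT) and 7692 reads (KO-labelled) in the naive pair and 1933 and 1711 in the HDM pair, a naive ratio of 5.29 (4.99 to 5.62). Its relative Arrdc4 went the other way, from 259 to 87 reads in the naive pair. Tmsb4x and Pfn1, which bind actin monomers, had naive ratios of 3.26 (3.17 to 3.34) and 4.24 (3.80 to 4.75), and both lay within 2-fold in the HDM pair. Ptma, a small nuclear protein gene, lay at 1.58 in the naive pair.

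On the lower side, Dnase1, BC037156 and Chia1 had the profile of the secretory genes, at -3.38, -4.09 and -3.53, with their highest value in WT naive skin. Trap1, a mitochondrial chaperone gene, lay at -3.68, from 8814 to 777 reads. The gene models of Trap1 and Dnase1 overlap by 54 bases on chromosome 16 in opposite directions (GENCODE vM21), so reads at their 3′ ends may be shared. Agbl5 and Ost4, at 1.14 and 1.15, likewise overlap by 1081 bases on chromosome 5.

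Of genes in the Wnt, TGF-beta, replication and antioxidant lists, Wnt2, a ligand gene, had 28 (WT) and 356 reads (KO-labelled) in the naive pair and 12 and 10 in the HDM pair. Tgfb3, a growth factor gene, had 382 and 100 reads in the naive libraries, Tk1, a thymidine kinase gene, 379 and 64, and Gclm, a subunit of the glutathione-making enzyme, 247 and 23. Gclm had 243 and 368 reads in the HDM libraries, so only the KO-labelled naive library was low. That is the pattern of the genes at 0 there, so a loss in that library and the genotype cannot be told apart. Gsr, the glutathione reductase gene, went the other way, from 212 to 962. These lists as wholes had medians of -0.24 (Wnt, 1 higher and 1 lower of 15), -0.03 (TGF-beta, 5 and 4 of 22), -0.12 (replication, 4 and 1 of 19) and 0.17 (antioxidant, 4 and 1 of 29).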
